A study of Mus musculus with 8 samples.

Results

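The basal layer of mouse epidermis was described here through 9 genes: the basal keratins Krt5, Krt14 and Krt15, the transcription factor gene Trp63, the integrin genes Itga6, Itgb4 and Itgb1, the hemidesmosome collagen gene Col17a1 and the laminin chain gene Lamb3. The genes were chosen by name, and each was read by the single Clariom S Mouse probe set whose only gene symbol it is. All 9 were found among 19572 probe sets with 1 symbol and 22206 probe sets tested. The arrays measured RNA from the back skin of male mice of the inbred C3H strain, in 4 groups of 2 arrays: minoxidil, tieghemelin, maslinic acid and a control that received Milli-Q water. All mice were 7 weeks old before a 7-day acclimatization, had their back hair trimmed and removed with a depilatory cream, and were treated on the skin once a day for 20 days, in groups of 8. Each compound was used at 1%, although the source name of minoxidil array 2 says 2% where its description says 1%. The titles of the control arrays name them as controls for tieghemelin and maslinic acid, and the same arrays served here for minoxidil. Nothing in the labels says which or how many mice stand behind an array, so the spread between arrays that underlies every p-value could be technical. The number of arrays limits the precision.

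Basal keratinocytes are the dividing cells of the epidermis and of the outer root sheath of the hair follicle. They assemble keratin 5 and keratin 14 into filaments, are specified by p63, the product of Trp63, and stand on a basement membrane. The α6β4 integrin and collagen XVII join keratin to laminin-332, which holds the laminin β3 chain, in hemidesmosomes, whereas β1 integrins pair with several α chains and link to actin. Keratin 15 marks basal cells and the bulge of the hair follicle. Whole skin also holds dermis, fat and muscle, and in such bulk samples fewer cells of a type and less RNA per cell cannot be told apart.

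Promoter sequence is shown for the gene whose value varied most over the arrays (Krt5), the gene that varied least (Col17a1) and an integrin gene that lay lower with minoxidil than with either other compound (Itgb1). The RefSeq promoter table, on GRCm38.p6, held 5 of the 9 genes, and for these 3 the window sat at the annotated gene start. The lines below give the 250 bases upstream of the start, 5′ to 3′ on the gene's strand, for Krt5 at chr15:101712906-101713155 (minus strand), Col17a1 at chr19:47692043-47692292 (minus strand) and Itgb1 at chr8:128685404-128685653 (plus strand). Capitals mark matches to the motifs searched.
Krt5: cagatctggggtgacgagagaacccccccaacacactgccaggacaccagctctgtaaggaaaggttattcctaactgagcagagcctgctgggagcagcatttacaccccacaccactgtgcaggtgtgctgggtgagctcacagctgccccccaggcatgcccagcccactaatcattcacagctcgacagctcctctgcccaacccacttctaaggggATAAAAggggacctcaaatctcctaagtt
Col17a1: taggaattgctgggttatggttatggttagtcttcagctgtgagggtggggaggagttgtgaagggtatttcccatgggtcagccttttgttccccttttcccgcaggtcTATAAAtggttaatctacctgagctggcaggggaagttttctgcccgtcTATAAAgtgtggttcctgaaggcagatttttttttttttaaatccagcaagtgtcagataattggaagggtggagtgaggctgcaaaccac
Itgb1: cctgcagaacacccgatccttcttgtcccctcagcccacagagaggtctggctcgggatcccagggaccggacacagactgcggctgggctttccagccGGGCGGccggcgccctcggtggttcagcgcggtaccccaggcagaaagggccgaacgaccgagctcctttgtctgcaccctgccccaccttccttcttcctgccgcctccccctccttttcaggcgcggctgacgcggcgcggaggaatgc
Both strands were searched for TATAAA, its variant ATAAAA (which can overlap it), the Sp1 box GGGCGG, the AP-1 motif TGANTCA and the AP-2 motif GCCNNNGGC. The Krt5 window held ATAAAA 29 to 24 bases upstream of the start, a motif present in 17% of all 32851 windows of that length. Col17a1 held TATAAA at 140 to 135 and at 91 to 86 bases upstream, against 12.4% of all windows with at least 1 match. Itgb1 held GGGCGG at 151 to 146 bases upstream, found in 32.7% of windows. TGANTCA, in 6.75% of all windows, and GCCNNNGGC, in 13.7%, were not among the letters of these 3 windows. The G and C share was 56.0% in Krt5, 46.0% in Col17a1 and 68.0% in Itgb1, with a median of 52.4% over all windows.

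The first control array was unlike the rest. Across probe sets its log2 values correlated with those of the other 7 at a Pearson r of 0.518 to 0.538, and those 7 correlated with one another at 0.901 to 0.966. Of the 9 basal genes, 4 exceeded the background on that array, taken as the median of probe sets that match no mouse sequence, and 7 or 8 did on each of the others. That median ran between 6.96 and 7.75 on the log2 scale and does not by itself call a probe set detected or absent. Differences of the 9 genes from control are therefore given with both control arrays and without control array 1. Without it the lone control array is assumed to vary like the arrays of the other groups.

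Krt5, the type II keratin of basal cells, had the widest range of the 9 genes. Its log2 value was 11.84 and 9.98 with minoxidil, 9.27 and 9.77 with tieghemelin, 11.40 and 10.18 with maslinic acid, against 10.09 and 13.72 in the control. Control array 2 was highest and both tieghemelin arrays were lowest, below either control array. The group means ran in the order tieghemelin (9.52), maslinic acid (10.79), minoxidil (10.91) and control (11.91), and the control arrays were 3.63 log2 units apart. Tieghemelin and maslinic acid arrays did not overlap, whereas those of maslinic acid and minoxidil overlapped, as did those of minoxidil and control. With all arrays tieghemelin was lower than control by 2.39 log2 units (difference -2.39, SE 1.12, limma adjusted p = 0.438). Without control array 1 that difference was -4.20 (SE 0.70), an 18.4-fold lower value, with a limma adjusted p of 0.040, and it was the only fall among the 9 genes that passed the adjusted test in this setting. The same comparison without control array 2 gave -0.57. For minoxidil the Krt5 difference was -0.997 with all arrays and -2.81 without control array 1. For maslinic acid it was -1.11 and -2.93 in the same settings. Both signs turned when control array 2 was left out, to 0.82 with minoxidil and 0.70 with maslinic acid.

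Krt14, the type I partner of keratin 5, was steady among treated arrays and split in the control. It measured 9.63 and 8.89 with minoxidil, 8.80 and 9.38 with tieghemelin, 9.28 and 9.14 with maslinic acid, against 7.26 (below background) and 10.68 in the control. All 6 treated arrays lay between the control arrays, so the direction against control depended on which one was used. With both, the differences were 0.30, 0.12 and 0.25 for minoxidil, tieghemelin and maslinic acid. Without control array 1 they were -1.42, -1.59 and -1.47, and without control array 2 they were 2.01, 1.83 and 1.96.

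Krt15, the keratin shared by basal cells and the follicle bulge, split into a high and a low range of arrays that cut across the groups. It measured 9.71 and 7.79 with minoxidil, 7.54 and 7.13 with tieghemelin, 8.87 and 7.32 with maslinic acid, against 7.48 (below background) and 9.87 in the control. Control array 2, minoxidil array 1 and maslinic acid array 1 formed the high range, and the other 5 arrays lay at 7.79 or lower. Tieghemelin was the treated group with no array in the high range. Its difference from control was -1.34 (SE 0.92) with all arrays and -2.53 (SE 0.75) without control array 1, where the limma adjusted p was 0.183. The minoxidil difference was 0.07 with all arrays and -1.12 without control array 1, and that of maslinic acid was -0.58 and -1.77.

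**Figure D1:**
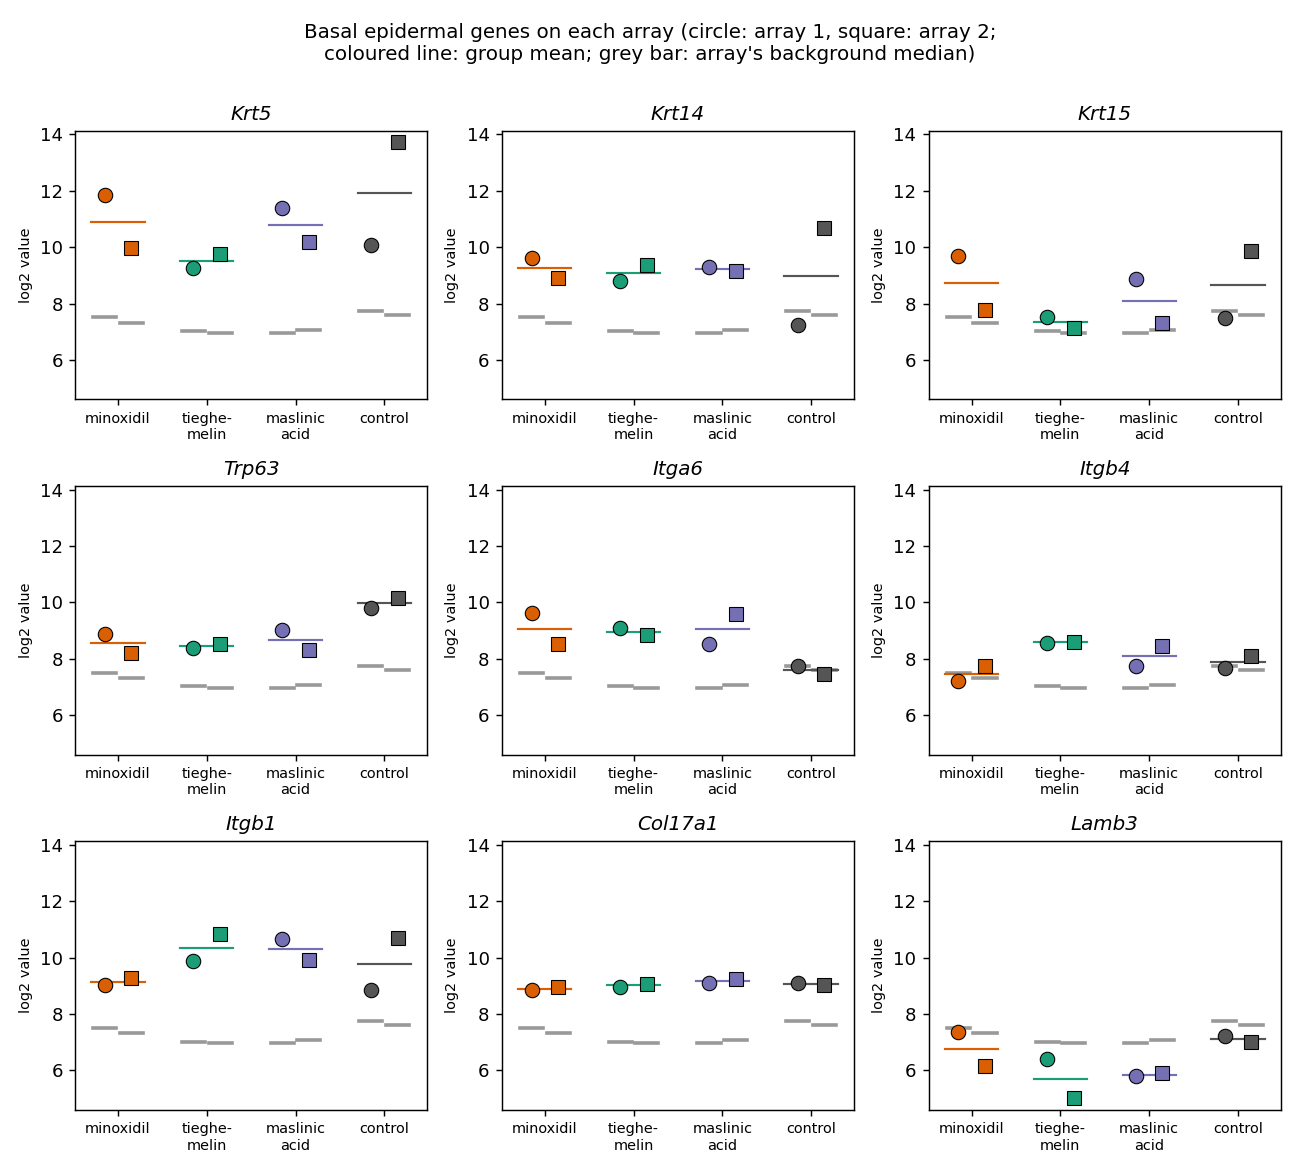
The log2 value of each of the 9 genes on each of the 8 arrays, in panels by gene, with minoxidil, tieghemelin, maslinic acid and control from left to right. Circles are array 1, squares array 2, coloured lines group means and grey bars the background median of that array. Trp63 is highest on both control arrays, Itga6 is lowest there, the keratins differ widely between the control arrays, and Lamb3 is under the background bar on all 8 arrays.

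Trp63, which encodes the p63 factor that specifies the basal layer, was lower in every treated group than in the control, whichever control array was used. Its log2 value was 8.90 and 8.19 with minoxidil, 8.38 and 8.53 with tieghemelin, 9.01 and 8.32 with maslinic acid, against 9.79 and 10.15 in the control. All 6 treated arrays lay below both control arrays. Means were 8.55 ± 0.50 with minoxidil, 8.46 ± 0.11 with tieghemelin and 8.66 ± 0.49 with maslinic acid, against 9.97 ± 0.25 in the control (SD, n = 2 each). The differences were -1.42, -1.51 and -1.31 (SE 0.42 each), or 2.68-, 2.85- and 2.47-fold lower values. The study's own thresholds of at least 1.7-fold and an unadjusted p of at most 0.05 were met in all 3, at limma unadjusted p of 0.0095, 0.0069 and 0.014. The limma adjusted p over all probe sets was 0.440, 0.410 and 0.448, so none passed. With the first control array left out the differences were -1.60, -1.69 and -1.49. The study's thresholds were no longer met without minoxidil array 2 (difference -1.07, limma unadjusted p = 0.0722) or without maslinic acid array 2 (-0.96, 0.113), and array weights ended them for the same comparisons. The 3 treated means lay within 0.21 of one another, closer than the arrays of the minoxidil and maslinic acid groups.

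Itga6, the α chain of the hemidesmosome integrin, ran the other way and was higher in every treated group. It measured 9.61 and 8.54 with minoxidil, 9.08 and 8.84 with tieghemelin, 8.54 and 9.59 with maslinic acid, against 7.74 and 7.46 in the control. Both control arrays were below their background medians, so folds are bounds taken against that median. Itga6 was at least 2.62-fold higher with minoxidil, at least 2.42-fold higher with tieghemelin and at least 2.61-fold higher with maslinic acid. The measured differences were 1.47, 1.36 and 1.46 (SE 0.51 each), at limma unadjusted p of 0.019, 0.027 and 0.020, and met the study's thresholds. The limma adjusted p was 0.440, 0.418 and 0.448. With control array 2 as the only control they were 1.61, 1.5 and 1.61. The study's thresholds were no longer met without minoxidil array 1 (difference 0.94), without maslinic acid array 2 (0.94) or without either tieghemelin array (limma unadjusted p of 0.116 and 0.0685). Without moderation of the standard errors, and with array weights, they were met in none of the 3 comparisons.

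Itgb4, the β chain that pairs only with α6, was lowest with minoxidil and highest with tieghemelin. It measured 7.21 (below background) and 7.73 with minoxidil, 8.58 and 8.61 with tieghemelin, 7.76 and 8.44 with maslinic acid, against 7.68 (below background) and 8.10 in the control. Tieghemelin arrays were the highest and lay above both control arrays. The differences from control were -0.42 with minoxidil, 0.70 with tieghemelin and 0.21 with maslinic acid (SE 0.41 each), and none met the study's thresholds. On control array 2 alone they were -0.63, 0.49 and -0.0021, so the sign for maslinic acid turned. With control array 1 as the only control the tieghemelin difference was 0.92 and met the study's thresholds (limma unadjusted p = 0.0492, adjusted p = 0.104). Whether the Itga6 and Itgb4 differences themselves differ was not tested.

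Itgb1, the β chain of most other keratinocyte integrins, was lower on both minoxidil arrays than on any array of the other compounds, and the minoxidil arrays lay between the control arrays. It measured 9.02 and 9.28 with minoxidil, 9.87 and 10.83 with tieghemelin, 10.67 and 9.91 with maslinic acid, against 8.87 and 10.70 in the control. The differences from control were -0.63, 0.57 and 0.51 (SE 0.64 each) with all arrays. Without control array 1 they were -1.55, -0.34 and -0.41, so the signs for tieghemelin and maslinic acid turned, and the minoxidil difference met the study's thresholds (limma unadjusted p = 0.0084).

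Col17a1, the transmembrane collagen of hemidesmosomes, was the flattest of the 9 genes. It measured 8.86 and 8.94 with minoxidil, 8.97 and 9.07 with tieghemelin, 9.09 and 9.24 with maslinic acid, against 9.11 and 9.04 in the control. The whole range was 0.379 log2 units, and control array 1 lay within it. The differences from control were -0.17 with minoxidil (95% interval -0.94 to 0.59), -0.05 with tieghemelin (-0.82 to 0.71) and 0.09 with maslinic acid (-0.67 to 0.86). With control array 1 left out they were -0.14, -0.018 and 0.13.

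Lamb3, the laminin β3 chain, was below the background median on all 8 arrays, so no fold is given. It measured 7.37 and 6.15 with minoxidil, 6.40 and 5.01 with tieghemelin, 5.82 and 5.90 with maslinic acid, against 7.22 and 7.002 in the control. The tieghemelin difference of -1.40 (SE 0.57) met the study's thresholds with all arrays and did not without control array 1, where it was -1.30, or without tieghemelin array 2 or either maslinic acid array, nor without moderation, with array weights or in a fit of these 2 groups alone. The minoxidil and maslinic acid differences were -0.35 and -1.25 with all arrays, and -0.24 and -1.15 without control array 1.

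**Figure D2:**
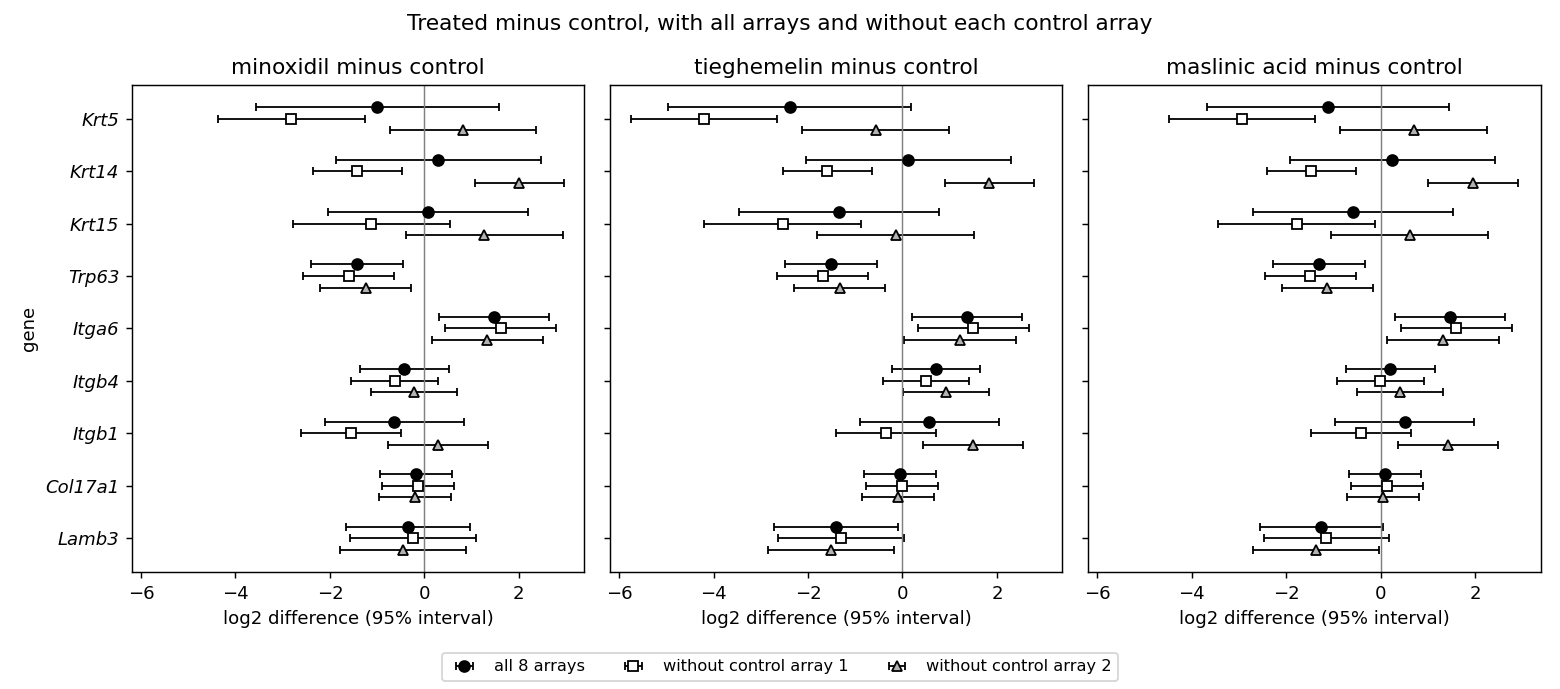
Log2 difference of each treatment from control for the 9 genes (horizontal axis, with 95% intervals from limma), with all 8 arrays (filled circles), without control array 1 (open squares) and without control array 2 (grey triangles). Trp63, Itga6, Col17a1 and Lamb3 keep their side of 0 in all 3 settings, whereas Krt14 lies on opposite sides when 1 or the other control array is left out.

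Over the 9 genes, the study's thresholds were met by 2 with minoxidil (Itga6 higher, Trp63 lower), by 3 with tieghemelin (Itga6 higher, Trp63 and Lamb3 lower) and by 2 with maslinic acid (Itga6 higher, Trp63 lower). They were met by 11.3%, 11.7% and 10.8% of all probe sets tested in these comparisons. Leaving out control array 1, 5 of the 9 met them in each comparison, Itga6 higher and 4 lower, against 12.9%, 13.7% and 12.8% of all probe sets. The 4 lower genes were Krt5, Krt14 and Trp63 in each case, with Itgb1 for minoxidil and Krt15 for tieghemelin and maslinic acid. The median difference of the 9 genes was -0.35, -0.05 and 0.09 with all arrays, against medians of 0.06, 0.05 and 0.05 over all probe sets. Without control array 1 it was -1.12, -1.30 and -1.15, against 0.04, 0.02 and 0.01. Arrays of treated and control groups did not overlap for 3 genes with minoxidil, 5 with tieghemelin and 3 with maslinic acid, while this held for 36.2%, 40.7% and 38.7% of all probe sets. These comparisons share their control arrays and are not independent of one another.

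By limma's adjusted p under 0.05, no probe set was called with all arrays in any of the 3 comparisons with control (0%). Their counts at an unadjusted p of at most 0.05 were 2502, 2609 and 2409. Without control array 1 the adjusted test called 1 probe set with minoxidil (0.0045%), 79 with tieghemelin (0.356%, Krt5 among them) and 1 with maslinic acid (0.0045%). Without control array 2, where control array 1 stands alone for the control, it called 37.7%, 37.9% and 37.3% of all probe sets, and 2, 3 and 2 of the 9 genes. Those were Krt14 in each comparison, Trp63 with minoxidil and tieghemelin, and Itgb1 with tieghemelin and maslinic acid. The exact permutation test over 2 arrays against 2 cannot go below a 2-sided p of 0.33.

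**Figure D3:**
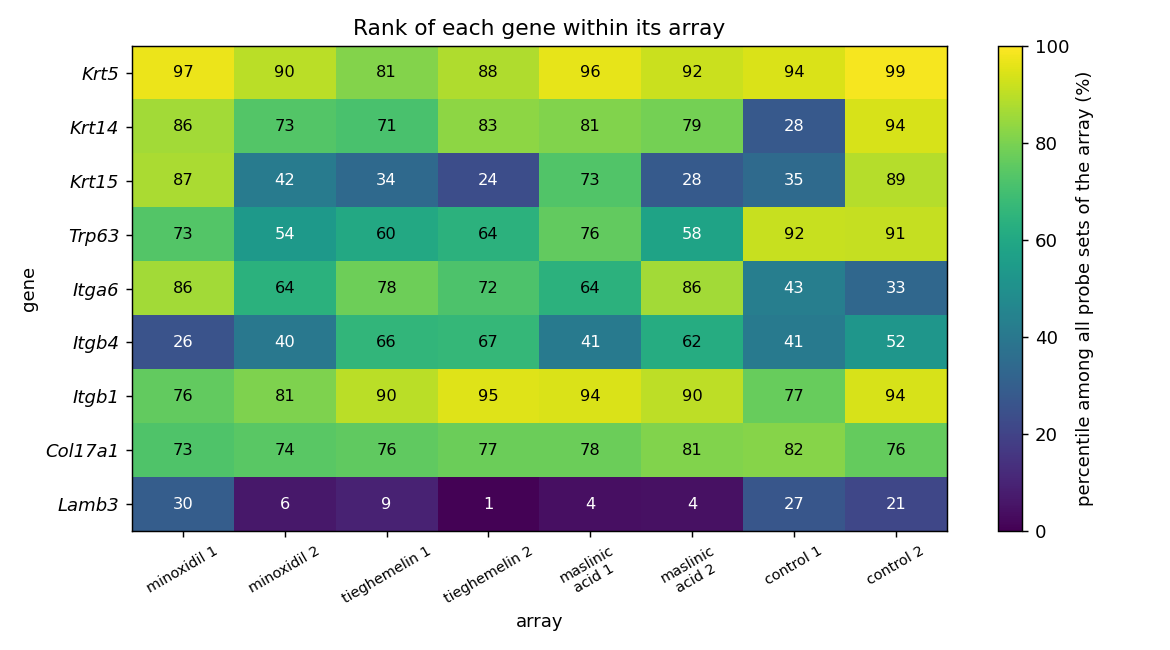
Percentile of each gene among all probe sets of the same array (colour and printed value, in %), with genes in rows and the arrays in columns, treated arrays left of the control. Read along a row, Krt14 ranks at 71.5 to 86.3 on treated arrays, against 28.0 and 93.9 on the control arrays, Trp63 ranks at 53.9 to 75.9 on treated arrays and higher on both control arrays, and Col17a1 stays between 72.5 and 81.8.

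The ranks within each array do not depend on the level of the whole array. Krt5 ranked between the 81.4th and 98.7th percentile on all 8 arrays. Krt10, the keratin of the first suprabasal layer, ranked between 89.9 and 96.5 on 7 arrays and at 66.2 on control array 1. The median percentile of the 9 genes was 63.9 to 79.1 on treated arrays, 42.9 on control array 1 and 88.7 on control array 2. Ranges over the arrays were wider for the 9 genes than for probe sets in general. Their median range over the 7 arrays without control array 1 was 1.95 log2 units, against 1.06 for all probe sets. The median gap between the arrays of a group was 0.74 for the 9 genes with minoxidil, 0.41 with tieghemelin and 0.69 with maslinic acid, against 0.39, 0.29 and 0.31 for all probe sets. In the control the order was the other way, with a median gap of 0.42 for the 9 genes and 0.89 for all probe sets.

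Skeletal muscle markers, 12 of 12 measured, also varied widely over the arrays. Their median log2 value was 10.76 and 10.48 with minoxidil, 9.06 and 8.61 with tieghemelin, 12.02 and 8.98 with maslinic acid, against 12.01 and 14.09 in the control. Between 10 and 12 of the 12 were above background on every array. All 12 were lower than control in each treatment, 7 with minoxidil, 11 with tieghemelin and 8 with maslinic acid at the study's thresholds, which 11.3%, 11.7% and 10.8% of all probe sets met. With control array 2 as the lone control the counts were 11, 11 and 11, against 12.9%, 13.7% and 12.8% of all probe sets, and the median muscle differences were -3.01, -5.36 and -3.47, against -2.15, -4.22 and -2.66 with all arrays. Control array 2 was thus highest for the muscle markers and for Krt5, Krt14 and Krt15, and the tieghemelin arrays were low for the muscle markers, Krt5 and Krt15. Within the maslinic acid group, array 1 was above array 2 by 1.22 for Krt5 and by 1.55 for Krt15, and it was also the array with the higher muscle median. Within the minoxidil group, array 1 was above array 2 by 1.87 for Krt5 and by 1.92 for Krt15, while the muscle medians were close (10.76 and 10.48). Control array 1 went the other way, with Krt5 at 0.69 below its own mean over the arrays and the muscle markers at a median of 1.24 above theirs. Trp63 was highest on the control arrays (9.79 and 10.15), where the muscle medians were 12.01 and 14.09. Next came maslinic acid array 1 (9.01) and minoxidil array 1 (8.90), the treated arrays with the highest muscle medians. Trp63 was lowest on minoxidil array 2 (8.19), whose muscle median (10.48) was above that of both tieghemelin arrays. The dermal fibroblast median, over 7 of 8 markers, was 8.22 to 9.31 on treated arrays, against 7.69 and 9.99 in the control, and so was likewise highest on control array 2. Fat cell and sebaceous gland medians were also highest there (8.485 and 8.44), whereas endothelial and melanocyte medians (7.20 and 7.72) were lower there than on any treated array. The T cell median there (8.09) was above all treated arrays and below control array 1 (8.15). The macrophage median (7.67) lay within the treated range. The part of these cell types in the keratin and Trp63 differences was not tested.

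**Figure D4:**
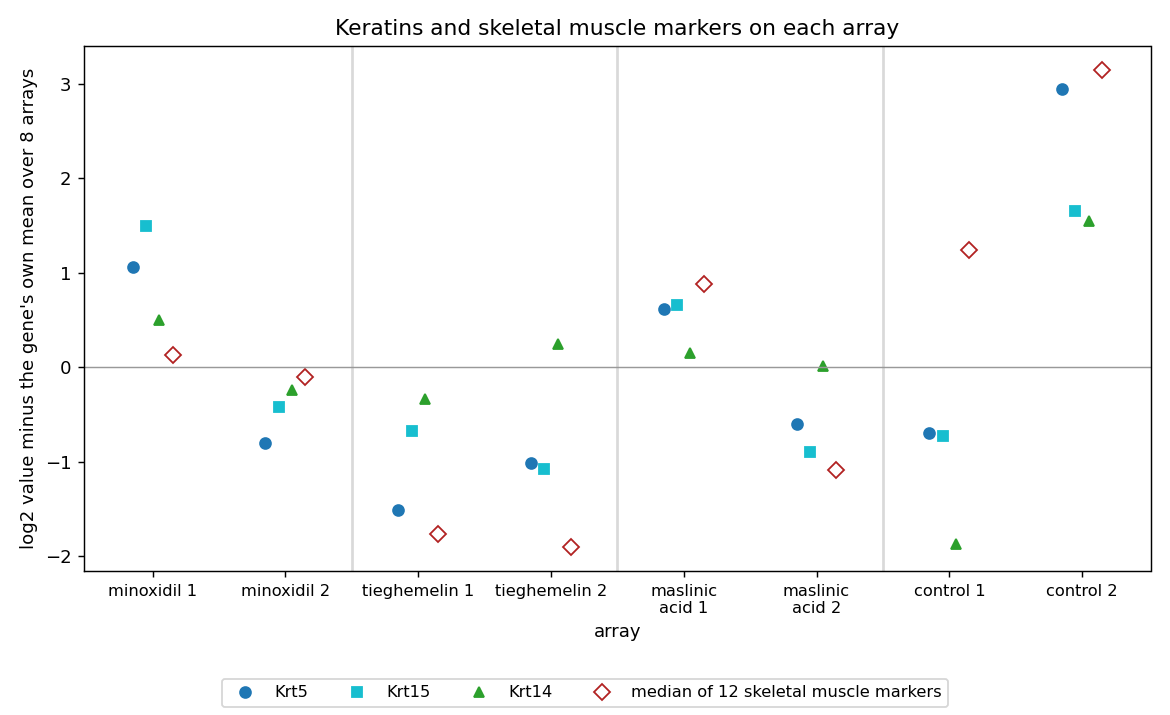
Krt5, Krt15 and Krt14 and the median of 12 skeletal muscle markers on each array, each gene as its log2 value minus its own mean over the 8 arrays. Krt5 and the muscle median are both highest on control array 2 and low on the tieghemelin arrays, and they part on control array 1.

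Between treatments, only Itgb4 met the study's thresholds with all arrays. It was higher with tieghemelin than with minoxidil by 1.13 (SE 0.41, 95% interval 0.19 to 2.06, limma unadjusted p = 0.024 and adjusted p of 1.0), and the arrays of these groups did not overlap. The thresholds were not met when minoxidil array 1 or either array of tieghemelin was left out (limma unadjusted p of 0.132, 0.0837 and 0.0916). With all arrays Itgb4 was 1 of the 9 genes at the thresholds in this comparison, against 3.3% of all probe sets. None of the 9 met the thresholds for maslinic acid against minoxidil or for tieghemelin against maslinic acid, where 3.6% and 0.306% of all probe sets did. Leaving out control array 1 narrows the shared estimate of spread and leaves the differences as they were. In that setting 4 genes met the thresholds for tieghemelin against minoxidil, Itgb4 and Itgb1 higher and Krt5 and Krt15 lower, against 10.4% of probe sets. Itgb1 alone met them for maslinic acid against minoxidil (11.1% of probe sets), and Krt5 alone, lower, for tieghemelin against maslinic acid (1.56%). Arrays did not overlap for 5 genes between tieghemelin and minoxidil, 4 between maslinic acid and minoxidil and 3 between tieghemelin and maslinic acid, as they did for 43.8%, 43.6% and 30.6% of all probe sets.

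Itgb1 was higher than with minoxidil by 1.21 with tieghemelin (95% interval -0.27 to 2.68) and by 1.14 with maslinic acid (-0.33 to 2.62). Krt5 was lower with tieghemelin than with minoxidil by a difference of -1.39 (-3.96 to 1.18), and Krt15 by -1.41 (-3.53 to 0.71). Tieghemelin and maslinic acid were applied at the same dose and for the same time, and the difference between them was -1.27 for Krt5 (-3.84 to 1.30), -0.76 for Krt15 (-2.87 to 1.36) and 0.50 for Itgb4 (-0.44 to 1.43). For Trp63 it was -0.21 (-1.17 to 0.76), for Itga6 -0.10 (-1.27 to 1.06) and for Itgb1 0.06 (-1.42 to 1.54). All 6 of these intervals include 0.

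**Figure D5:**
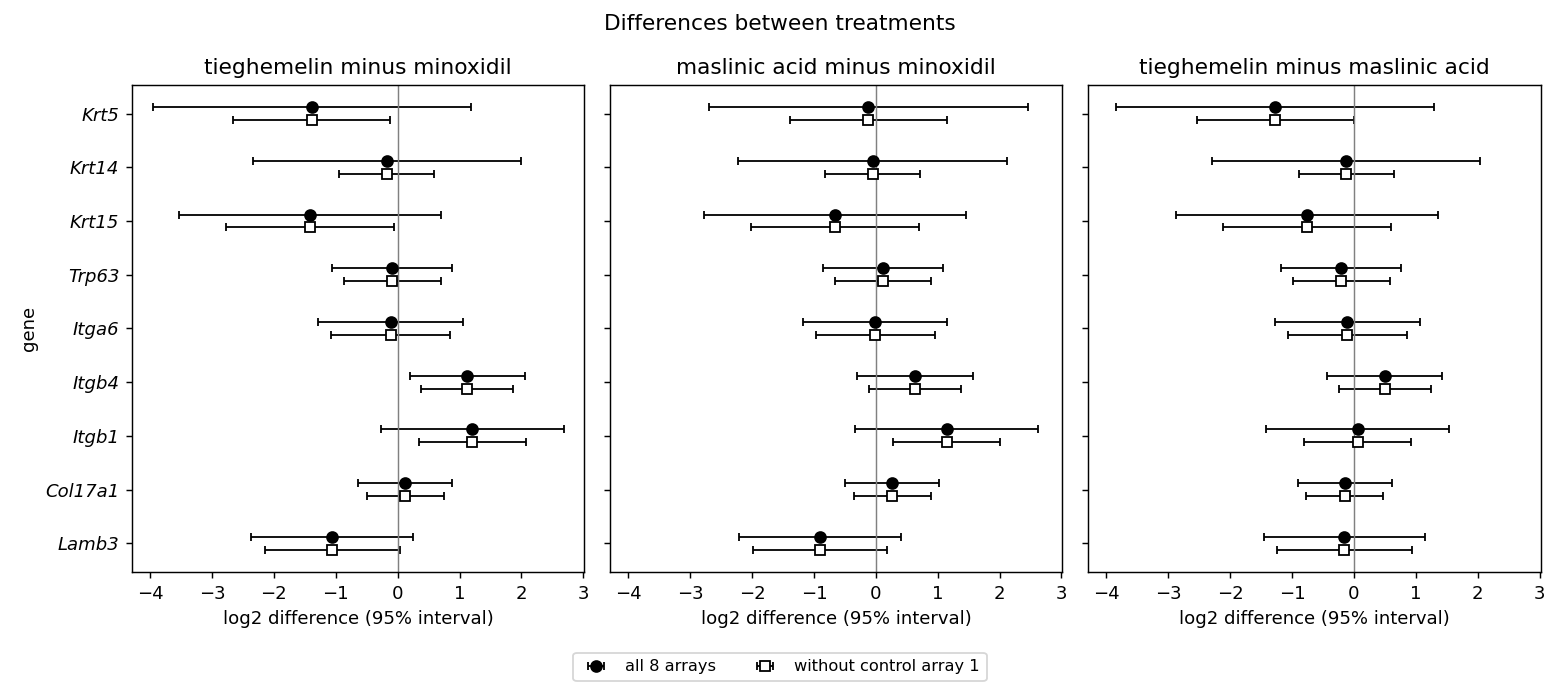
Log2 differences between treatments for the 9 genes (horizontal axis, with 95% intervals from limma), with all 8 arrays (filled circles) and without control array 1 (open squares). Itgb4 and Itgb1 lie to the right of 0 for tieghemelin minus minoxidil in both settings, and with all 8 arrays the Itgb1 interval includes 0. Leaving out control array 1 changes the intervals and not the differences.

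Other genes of the basal layer's attachments were mostly below the thresholds. Of 14 hemidesmosome and basement membrane partners, 11 were measured, and 3 were higher and 1 lower with minoxidil, 1 higher with tieghemelin and 1 higher with maslinic acid. Those were 4, 1 and 1 of 11, in comparisons where 11.3%, 11.7% and 10.8% of all probe sets met the thresholds. With control array 1 left out, where 12.9%, 13.7% and 12.8% did, the counts were 2 higher and 1 lower with minoxidil, and none higher and 1 lower with each of the other compounds. Itga3, the α chain that pairs with β1 on laminin, was the gene higher in all 3, with differences of 2.04, 1.80 and 1.71 that shrank to 0.83, 0.59 and 0.50 without control array 1. Its value was 8.83 to 9.43 on treated arrays, against 5.91 (below background) and 8.34 in the control. Fermt1, kindlin-1 of keratinocyte integrin contacts, was higher with minoxidil by 1.93, and by 0.92 without control array 1. Lama5 was at least 1.34-fold higher with minoxidil than with control, both control arrays being below background, and the measured difference was 0.87, and 0.93 without control array 1. Lamc1, the partner lower with minoxidil (difference -0.90, and -0.96 without control array 1), was below background on every array. Lama3, the laminin α3 chain that joins Lamb3 in laminin-332, was higher on both minoxidil arrays than on any array of the other compounds. It measured 7.55 and 7.80 on tieghemelin arrays, 8.45 and 7.69 on maslinic acid arrays, and 9.99 and 9.07 on minoxidil arrays. The control arrays were at 7.52 (below background) and 9.31. Tieghemelin and maslinic acid arrays overlapped, with a difference of -0.39. The differences from minoxidil were -1.85 with tieghemelin and -1.46 with maslinic acid (limma adjusted p of 0.9999 each). Lama3 and Lama5 were the 2 of 11 partners lower at the thresholds in both of these comparisons, which 3.3% and 3.6% of all probe sets met.

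Of the α chains and adhesion adaptors that partner β1 integrin, 10 of 12 were measured, and none met the thresholds against control with all arrays. Of all probe sets, 11.3% met them with minoxidil, 11.7% with tieghemelin and 10.8% with maslinic acid. With all arrays 7 of the 10 were lower than control with minoxidil and 7 with tieghemelin (median differences -0.45 and -0.32). Without control array 1 these were 5 and 9 (medians -0.06 and -0.31). Vcl, which encodes vinculin, was higher with maslinic acid than with minoxidil by 1.10 and lower with tieghemelin than with maslinic acid (difference -1.04). It was the 1 gene of the 10 at the thresholds in each of these 2 comparisons, which 3.6% and 0.306% of all probe sets met. Neither difference passed limma's adjusted test, and Vcl was below background on minoxidil array 1 (6.45) and tieghemelin array 1 (6.87). Of p63 targets and partners, 13 of 15 were measured. With all arrays none was higher and 2 lower at the thresholds with minoxidil, 1 higher and 1 lower with tieghemelin, and 2 higher and 1 lower with maslinic acid. The shares of all probe sets at the thresholds in these comparisons were again 11.3%, 11.7% and 10.8%. Itch, a ubiquitin ligase that acts on p63, was the gene lower in all 3, but it was below background on all arrays of all groups compared. Fgfr2, also lower with minoxidil (difference -1.12, and -0.50 without control array 1), was above background only on control array 1. Ppp1r13l, which encodes the p63 target iASPP, was at least 1.42-fold higher with tieghemelin and at least 1.58-fold higher with maslinic acid, and its measured differences of 0.99 and 1.15 were 1.05 and 1.205 without control array 1. Jag2, a Notch ligand, was higher with maslinic acid by 0.97, and by 1.30 without control array 1. Among 10 other basal layer genes, Dll1, also a Notch ligand, was higher in all 3 by 1.86, 1.45 and 1.56, and by 0.86, 0.45 and 0.56 without control array 1. Cd44 met the thresholds with tieghemelin (difference -0.98), but it was above background only on control array 1 (8.05), and the difference was -0.49 without that array. At the thresholds were 1, 2 and 1 of these 10 genes with all arrays, beside the same shares of all probe sets.

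Genes of the layers above lay on both sides of the control. Of 13 suprabasal genes 12 were measured, and with all arrays 6 were higher and 6 lower than control in each comparison. Without control array 1, 4 were higher and 8 lower with minoxidil, at a median difference of -0.30. With all arrays 1 was higher and 1 lower at the thresholds with minoxidil, 2 higher and 1 lower with tieghemelin, and 2 higher and 1 lower with maslinic acid. Of all probe sets, 11.3%, 11.7% and 10.8% met the thresholds in these comparisons. Cdsn, the corneodesmosin of cornified cell contacts, was higher by 1.27, 0.86 and 0.84, and by 1.43, 1.02 and 0.997 without control array 1. Krtdap, a keratinocyte differentiation gene, was lower in all 3 (differences -1.22, -1.33 and -1.33, or -1.11, -1.22 and -1.22 without control array 1), with 8.02 to 8.84 on treated arrays, against 9.88 and 9.66 in the control. Tgm1, the transglutaminase of the cornified envelope, was higher with tieghemelin by 1.84 and with maslinic acid by 1.39, and these were 1.12 and 0.67 without control array 1. The wound keratins Krt16 and Krt17, 2 of 4 in that list that were measured, did not meet the thresholds against control with all arrays. Krt17 differences were -1.05, -0.86 and -1.05, and -1.71, -1.52 and -1.71 without control array 1. Those of Krt16 were 0.47, 0.55 and 0.17, and turned to -0.50, -0.43 and -0.80. Krt17 was below background on the minoxidil and maslinic acid arrays and on control array 1. The median differences of these lists from control with all arrays lay between -0.45 and 0.32. By limma's adjusted test 0 of their members passed, as did 0% of all probe sets.

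For each of the 9 genes, the named genes with the nearest array profile were found by the root mean square distance between profiles, each gene centred on its own mean over the 8 arrays. The nearest were Atp5a1 for Krt5 (0.46), Snx5 for Krt14 (0.20), Xirp2 for Krt15 (0.34), Pgam2 for Trp63 (0.13), Dcaf12l2 for Itga6 (0.25), Tas1r3 for Itgb4 (0.14), Snrk for Itgb1 (0.24), Svip for Col17a1 (0.067) and Fez1 for Lamb3 (0.30). The second nearest were Nexn, H2ac10, Clca3a2, Bccip, Abhd17c, Tor3a, Grik1, Slitrk2 and Pigb in the same order of genes. Over the 7 arrays without control array 1 the nearest were Ccng1, Pkm, Clca3a2, H2ac10, Olfr45, Arhgef39, Lamp1, Rnf181 and Mup5, with Apoe, Ndufb4b, Rps7, Pgam2, Dcaf12l2, Ptk6, Hspa4, Nkx6-3 and Dhrs1 next. Among the 9 genes themselves, the distance from Krt5 to Krt15 was 0.59 over the 8 arrays, and 0.0486% of named probe sets lay as near to Krt5. Over the 7 arrays these values were 0.63 and 0.13%. Krt14 and Trp63 were 1.06 apart over the 8 arrays, with 62.0% of named probe sets as near to Krt14, and 0.20 apart over the 7 arrays, with 0.119% as near. Itga6 and Itgb4 were not among the nearest pairs. These distances describe 8 arrays of 4 groups that share normalization, and carry no test.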

How the data were processed

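Each array held labelled RNA of mouse dorsal skin. The authors deposited 1 normalized table, whose range was read as a log2 scale. The values were normalized in Transcriptome Analysis Console 4.0.1, per the series' design text, and Affymetrix Expression Console and RMA are also named, per the submitters' processing notes. RMA quantile-normalizes probes across arrays, so differences in total signal are largely removed. A genome build is not given in the sources used here. The array's own control probe sets (6640) were left out and 22206 were tested without filtering. Symbols came from the platform annotation: 19572 probe sets had 1, 0 had several and 2634 had none. Groups came from the labels.

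Differences were fitted with limma 3.58.1 in R 4.3.3 (linear model on all 8 arrays, eBayes, 4 residual degrees of freedom) for 6 comparisons, with Benjamini-Hochberg adjustment over all probe sets. Background was the median of 23 antigenomic probe sets. A gene below it on every array of a group was given as a bound or without a fold. Tables and figures were made in Python 3.11.15. The code was tested on simulated data.

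The genes, lists and tests were chosen with earlier results of these data known. The text names all 9 genes and the 2 genes nearest to each in profile. From each list, up to 4 members at the study's thresholds without overlap between arrays, or the 2 with the largest difference, were picked. Picked genes that met the thresholds are named, whereas not all of the other picked genes are. Alternatives were a replicate block, a filter on dim probe sets, quantile normalization, a common median, trend and robust eBayes, unmoderated errors, estimated array weights, fits of 2 groups at a time and leaving out each array. A crossed block was added after seeing the data.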

Additional observations from a re-analysis of the deposited data

How the results depend on the processing

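Of 54 differences of the 9 genes, 861 values were computed under the alternatives, of which 811 kept their direction and side of the adjusted threshold, 42 turned sign (26 differences) and 8 newly passed it. No Trp63, Itga6 or Col17a1 difference from control turned sign. Counts of the 9 genes at the study's thresholds moved for minoxidil, tieghemelin and maslinic acid against control to 1, 1 and 1 without moderation and to 0, 1 and 0 with array weights, where both control arrays weighed 0.219. The weights were equal within every group of 2 arrays, so they could not set control array 1 apart from control array 2. For tieghemelin against minoxidil the count was 0 with brighter probe sets only, which held 7 of the 9 genes but not Itgb4, 5 with array weights and 4 in the 2 groups alone. For maslinic acid against minoxidil and tieghemelin against maslinic acid it was 1 and 1 with array weights and 1 and 1 in the 2 groups alone. With each array left out in turn, these counts ran from 1 to 5, 1 to 6 and 0 to 5 against control and from 0 to 4, 0 to 1 and 0 to 1 between treatments. The numbers of probe sets called by the adjusted test ran from 0 to 8363, 0 to 8427 and 0 to 8282 against control. The median difference of the 9 genes ran from -1.12 to 0.28 for minoxidil, from -1.30 to -0.002 for tieghemelin and from -1.15 to 0.61 for maslinic acid against control. Leave-one-out ranges of differences that turned sign were, for minoxidil minus control, Krt5 -2.81 to 0.82, Krt14 -1.42 to 2.01, Krt15 -1.12 to 1.27, Itgb1 -1.55 to 0.28 and Lamb3 -0.96 to 0.26. They were, for tieghemelin minus control, Krt14 -1.59 to 1.83 and Itgb1 -0.34 to 1.49. For maslinic acid minus control they were Krt5 -2.93 to 0.70, Krt14 -1.47 to 1.96, Krt15 -1.77 to 0.61, Itgb4 -0.13 to 0.55 and Itgb1 -0.41 to 1.43. For tieghemelin minus minoxidil they were Krt14 -0.54 to 0.20, Trp63 -0.44 to 0.26 and Itga6 -0.65 to 0.42. For maslinic acid minus minoxidil they were Krt5 -1.05 to 0.81, Krt14 -0.42 to 0.32, Krt15 -1.61 to 0.30, Trp63 -0.23 to 0.47 and Itga6 -0.55 to 0.53. For tieghemelin minus maslinic acid they were Krt14 -0.42 to 0.17, Krt15 -1.53 to 0.0203, Trp63 -0.55 to 0.14, Itga6 -0.63 to 0.42, Itgb1 -0.42 to 0.54 and Lamb3 -0.85 to 0.55. Itga6 for maslinic acid minus minoxidil (-0.0091) was 0.012 with quantile normalization and 0.0023 with a common median. The causes were not tested. Same-numbered arrays did not deviate together (r of -0.17 to 0.09), so the replicate numbers were not taken as pairs. With a replicate block the counts of the 9 genes were 2, 3 and 3 against control and 1, 0 and 0 between treatments. The crossed block, chosen after seeing the data for tieghemelin minus maslinic acid, where r was -0.17, gave 0 of the 9 genes and 52 probe sets at the thresholds. With 2 arrays a group, of which 1 control array stood apart, and signals near background for Itgb4, Krt15 and Lamb3, small differences could not be resolved.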
